A study of Mus musculus with 258 samples.

Results

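The genes described here are 10 immediate early genes of the mouse, Fos, Fosb, Jun, Junb, Jund, Egr1, Atf3, Klf6, Ier2 and Dusp1, out of 40824 genes in the read count tables of a study of endocrine cell formation in the embryonic pancreas. They were taken by symbol. All 10 were listed in the bulk table and in the single-cell table, and all 10 passed the filter on low counts in bulk. In single cells 9 of the 10 reached 5 CPM (reads of a gene scaled to a common total of reads in genes) in at least 1 of the groups compared in each genotype, and Atf3 did not. The study sorted cells of dorsal pancreas on embryonic day E13.5 by a fluorescent reporter of Ngn3, the transcription factor that starts the endocrine programme, into Ngn3-high and Ngn3-low cells. Of its 258 samples, 6 bulk RNA libraries and the single cells are used here, and 31 chromatin samples are not analysed here. By RefSeq (GRCm38.p6) the genes lie on chromosomes 12 (Fos), 7 (Fosb), 4 (Jun), 8 (Junb, Jund and Ier2), 18 (Egr1), 1 (Atf3), 13 (Klf6) and 17 (Dusp1), and none overlaps another gene there.

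In bulk there were 3 groups of 2 libraries each: Ins1-RFP+ cells of E17.5, which carry a reporter of an insulin gene, Ngn3-high cells of E13.5 and Ngn3-low cells of E13.5. The single cells, all of E13.5, formed 4 groups: 44 Ngn3-high and 69 Ngn3-low cells from Pdx1-Cre; Jmjd3 fl/fl embryos, and 59 Ngn3-high and 49 Ngn3-low cells from embryos labelled WT. Jmjd3 (gene Kdm6b) encodes a demethylase of the repressive histone mark H3K27me3, and Pdx1-Cre deletes the floxed gene in pancreatic epithelium. The labels of the WT cells name no Cre, so Cre and the deletion cannot be told apart. No label names an animal: p-values in bulk measure the spread between 2 libraries, which may be technical, and each single-cell group counts as 1 sample without a test.

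Immediate early genes are switched on within minutes of a growth factor, stress or calcium signal, from factors already present in the cell, and their mRNAs are short-lived. The signal commonly runs through MAP kinases to serum response factor and CREB at the promoters. Fos and Fosb pair with Jun, Junb or Jund to form the AP-1 transcription factor, Egr1 and Klf6 are zinc finger factors, Atf3 is a stress-induced factor of the ATF/CREB family, Ier2 is a small nuclear protein, and Dusp1 is a phosphatase that switches MAP kinases off. Tissue dissociation is known to induce many of them.

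Bulk libraries held 11957415 to 17760214 reads in genes and cells 380478 to 1949839, with a median per cell of 738979 in deleted Ngn3-high, 734064 in deleted Ngn3-low, 721848 in WT Ngn3-high and 608883 in WT Ngn3-low cells. Neurog3, the gene of Ngn3, had 1191 and 1090 CPM in bulk Ngn3-high libraries, against 193 and 161 CPM in Ngn3-low libraries. In summed single cells it had 1735 CPM in deleted Ngn3-high against 90.8 CPM in deleted Ngn3-low cells, and 1256 CPM in WT Ngn3-high against 70.3 CPM in WT Ngn3-low cells. Kdm6b had 107 CPM in deleted Ngn3-high against 265 CPM in WT Ngn3-high cells, and 55.5 CPM in deleted Ngn3-low against 131 CPM in WT Ngn3-low cells. Its mRNA was thus lower but present in the deleted cells. The labels do not give the deleted stretch, and reads from the rest of the gene count as well.

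Promoter sequences from RefSeq (GRCm38.p6, the 250 bases before an annotated start of each gene) were found for 8 of the 10 genes. Those of Egr1 and Ier2 were not found. The window of Fosb overlaps the annotated span of the gene by 73 bases, and the other 7 windows end at that span. The sequences printed are those of Fos, Junb and Dusp1, which were lower in Ngn3-high cells in bulk and higher in single cells, and of Jun, which was lower in both. They lie at chr12:85473640-85473889 on the plus strand (Fos), chr8:84978749-84978998 on the minus strand (Junb), chr17:26508473-26508722 on the minus strand (Dusp1) and chr4:95052223-95052472 on the minus strand (Jun), and each ends at the base before the start site. Capitals mark the cAMP response element (CRE, TGACGTCA), its core (TGACG or CGTCA) and a CRE-like site bound by ATF and AP-1 factors (TGACATCA or TGATGTCA).
Fos: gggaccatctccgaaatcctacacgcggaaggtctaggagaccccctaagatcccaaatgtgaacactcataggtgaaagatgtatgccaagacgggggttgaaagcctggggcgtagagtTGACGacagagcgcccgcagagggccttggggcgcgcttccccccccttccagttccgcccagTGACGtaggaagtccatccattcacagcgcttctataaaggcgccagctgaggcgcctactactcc
Junb: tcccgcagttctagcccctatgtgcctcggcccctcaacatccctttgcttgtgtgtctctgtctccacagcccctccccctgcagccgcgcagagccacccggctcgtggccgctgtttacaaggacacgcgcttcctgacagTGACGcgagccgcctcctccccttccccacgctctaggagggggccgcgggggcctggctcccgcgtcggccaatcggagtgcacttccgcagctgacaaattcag
Dusp1: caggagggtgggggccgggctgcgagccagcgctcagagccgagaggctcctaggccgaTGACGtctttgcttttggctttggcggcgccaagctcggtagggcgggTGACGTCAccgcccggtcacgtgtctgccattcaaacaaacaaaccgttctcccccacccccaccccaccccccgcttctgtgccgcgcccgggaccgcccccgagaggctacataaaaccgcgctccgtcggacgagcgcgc
Jun: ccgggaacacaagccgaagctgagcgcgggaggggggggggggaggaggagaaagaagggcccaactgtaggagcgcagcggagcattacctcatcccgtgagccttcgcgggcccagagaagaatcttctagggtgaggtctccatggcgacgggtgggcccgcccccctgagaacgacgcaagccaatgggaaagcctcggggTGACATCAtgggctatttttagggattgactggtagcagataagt
The whole CRE was found in the window of Dusp1, 143 bases before its start, and in 1.62% of 27025 mouse promoter windows. Its core, which the whole CRE also contains, was in 5 of the 8 windows (Fos, Fosb, Junb, Atf3 and Dusp1) and in 17.9% of all windows. The CRE-like site was in the windows of Jun, 45 bases before the start, and Klf6, and in 3.02% of all. The AP-1 site (TGACTCA or TGAGTCA, 4.43% of all windows) and the CArG box of serum response factor (1.4%) were in none of the 8. A TATA box (TATAAA, on the gene's strand) was in the window of Fos and in 8.12% of all, and the site GCGGGGGCG of EGR factors, read on both strands, was in that of Fosb and in 2.56% of all. The GC box (GGGCGG or CCGCCC) was in 6 of the 8 and in 32.9% of all, and the CCAAT box (CCAAT or ATTGG) in 3 of the 8 and in 34.5% of all. The CRE core and the EGR site of Fosb lie in the 73 bases that overlap its gene. These matches describe letters in the windows and were not tested as binding sites. Bases beyond the 250 of each window, and the promoters of Egr1 and Ier2, were not searched, so a site absent here may lie there.

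In bulk, 9 of the 10 genes fell in Ngn3-high cells relative to Ngn3-low cells, with log2 fold changes between -3.14 and -0.90, and none rose (edgeR quasi-likelihood test, Benjamini-Hochberg adjusted p under 0.05 over 15684 genes). In this comparison 30.2% of all genes tested fell and 27.7% rose. No gene of the 10 rose at an unadjusted p under 0.05 or with DESeq2 either. The median log2 fold change was -1.20 over the 10 genes and -0.01 over all genes. Summed over the 10 genes, the libraries had 3236 and 2582 CPM in Ngn3-high cells, against 7541 and 7800 CPM in Ngn3-low cells.

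Of the Fos family, Fos had 596 and 416 CPM in Ngn3-high libraries, against 1401 and 1360 CPM in Ngn3-low libraries. It fell by 1.36 on the log2 scale (SE 0.23, edgeR adjusted p = 0.00109). Fosb had 291 and 111 CPM in Ngn3-high, against 955 and 993 CPM in Ngn3-low libraries, and fell by 2.19 (SE 0.39, edgeR adjusted p = 0.00161). Leaving out the Ngn3-high library labelled 1 gave Fosb a log2 fold change of -3.08, and leaving out that labelled 2 gave -1.64. For both genes each Ngn3-high library lay below each Ngn3-low library, and the spread lay mostly within the Ngn3-high group, where Fosb averaged 201 ± 128 CPM (SD, n = 2).

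Among the Jun family, Jun had 922 and 721 CPM in Ngn3-high, against 1917 and 1895 CPM in Ngn3-low libraries, and fell by 1.13 on the log2 scale (SE 0.18, edgeR adjusted p = 0.000834). Junb had 106 and 75.4 CPM in Ngn3-high, against 185 and 191 CPM in Ngn3-low libraries, and fell by 0.97 (SE 0.21, edgeR adjusted p = 0.00454). The groups did not overlap for either gene. Jund, the member of the family that is least dependent on stimuli, had 235 and 481 CPM in Ngn3-high libraries, against 196 and 400 CPM in Ngn3-low libraries. Its groups overlapped, and the log2 fold change of 0.35 (SE 0.41, edgeR adjusted p = 0.484) did not pass the test. With the replicate number as a block the same change of 0.35 passed (SE 0.12, edgeR adjusted p = 0.0350), although the numbers were not taken as pairs. In each of the 3 bulk groups the library labelled 2 had more Jund than the library labelled 1, with 498 against 294 CPM in Ins1-RFP+ cells.

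Klf6 had the largest change of the 10 genes in bulk, with 108 and 68.995 CPM in Ngn3-high libraries, against 835 and 821 CPM in Ngn3-low libraries. It fell by 3.14 on the log2 scale (SE 0.23, edgeR adjusted p = 7.96e-06). Egr1 had 566 and 403 CPM in Ngn3-high, against 962 and 959 CPM in Ngn3-low libraries, and fell by 0.90 (SE 0.23, edgeR adjusted p = 0.0102). Without the Ngn3-high library 2 the change of Egr1 was -0.66 and did not pass (edgeR adjusted p = 0.0892). Atf3 had 113 and 69.8 CPM in Ngn3-high, against 471 and 516 CPM in Ngn3-low libraries, and fell by 2.34 (SE 0.24, edgeR adjusted p = 6.52e-05).

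Dusp1 had 143 and 142 CPM in Ngn3-high libraries, against 338 and 389 CPM in Ngn3-low libraries, and fell by 1.27 on the log2 scale (SE 0.15, edgeR adjusted p = 0.000127). Ier2 had 154 and 93.5 CPM in Ngn3-high, against 281 and 275 CPM in Ngn3-low libraries, and fell by 1.08 (SE 0.24, edgeR adjusted p = 0.00482). The 2 groups did not overlap for either gene.

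**Figure D1:**
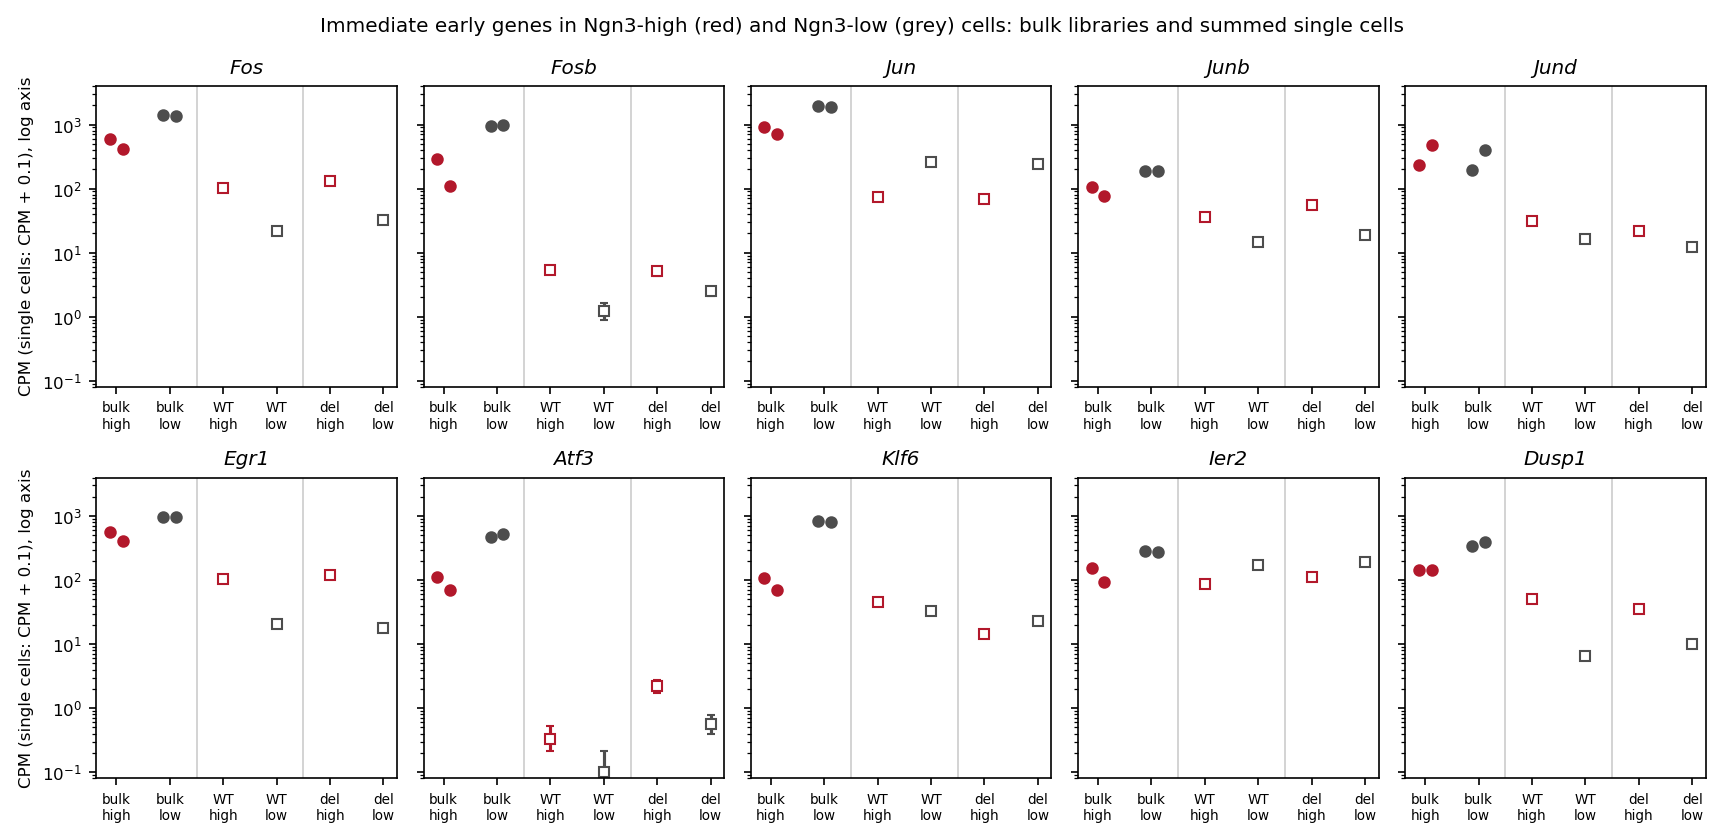
Level of each of the 10 genes in CPM on a log axis, with Ngn3-high groups in red and Ngn3-low groups in grey. Filled points are the 2 bulk libraries of a group, and open squares are summed single cells of WT and deleted (del) embryos, drawn with 0.1 CPM added and with exact 95% Poisson intervals of counting error. Bulk libraries of Fos stand at 596 and 416 CPM in Ngn3-high and 1401 and 1360 CPM in Ngn3-low cells, while its single-cell sums stand at 103 CPM in WT Ngn3-high and 21.6 CPM in WT Ngn3-low cells.

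In single cells the genes divided. Reads were summed over the cells of a group and given as CPM, and a gene was counted as past 2-fold when the log2 ratio of CPM + 1 was at least 1 in size and either group had 5 CPM or more. Of 9 members at that level, 5 were higher in WT Ngn3-high than in WT Ngn3-low cells (Fos, Fosb, Junb, Egr1 and Dusp1) and 1 was lower (Jun). Over all genes at that level, 14% were higher and 19% lower. In deleted cells 4 of 9 were higher (Fos, Junb, Egr1 and Dusp1) and 1 was lower (Jun), against 15.3% and 18.7% of all genes. With cells scaled to their ERCC spike-in reads, 3 were higher in WT cells (Fos, Egr1 and Dusp1) and 2 lower (Jun and Ier2). That scaling moved the split over all genes in WT cells to 1177 higher and 3195 lower, against 1645 and 2242 by CPM. Adding 10 CPM in place of 1 also left the same 3 higher. Summed over the 10 genes, the level was 567 CPM in deleted Ngn3-high against 547 CPM in deleted Ngn3-low cells, and 533 CPM in WT Ngn3-high against 544 CPM in WT Ngn3-low cells. Intervals in single cells cover counting error only, since amplified reads without molecular identifiers are not independent molecules.

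Fos had 103 CPM (95% interval 99.9 to 106) in WT Ngn3-high cells, against 21.6 CPM (19.99 to 23.22) in WT Ngn3-low cells. From the lowest over the median to the highest cell, it ran 0, 58.04 and 624 CPM in WT Ngn3-high cells and 0, 0 and 338 CPM in WT Ngn3-low cells. The log2 ratio was 2.20 in WT and 2.02 in deleted cells, where the sums were 133 CPM in Ngn3-high and 32.1 CPM in Ngn3-low cells. The direction was opposite to that in bulk, but the cells overlapped widely, and 5 cells held 73.5% of the Fos reads of WT Ngn3-low cells. Fosb was scarce, with 5.33 CPM in WT Ngn3-high against 1.11 CPM in WT Ngn3-low cells, and 5.02 CPM in deleted Ngn3-high against 2.38 CPM in deleted Ngn3-low cells. Its log2 ratios were 1.58 in WT and 0.83 in deleted cells.

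Jun kept the direction of bulk. It had 73.7 CPM (71.2 to 76.3) in WT Ngn3-high cells, against 260 CPM (254 to 265) in WT Ngn3-low cells, and 68.1 CPM in deleted Ngn3-high, against 239 CPM in deleted Ngn3-low cells. The log2 ratio was -1.80 in each genotype, and the median cell had 53.7 CPM in WT Ngn3-high and 191 CPM in WT Ngn3-low cells. Junb went the other way, with 35.4 CPM in WT Ngn3-high against 14.47 CPM in WT Ngn3-low cells, and 54.9 CPM in deleted Ngn3-high against 18.5 CPM in deleted Ngn3-low cells, giving log2 ratios of 1.24 and 1.52. Within AP-1, therefore, the sums of Fos and Junb were higher and that of Jun was lower in Ngn3-high single cells of both genotypes. For Fos in WT cells the direction did not hold in every subset of cells, as given below. Jund had 30.6 CPM in WT Ngn3-high against 16.02 CPM in WT Ngn3-low cells, and 21.3 CPM in deleted Ngn3-high against 12.3 CPM in deleted Ngn3-low cells, with log2 ratios of 0.89 and 0.75.

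Egr1 had 102 CPM (99.1 to 105) in WT Ngn3-high cells, against 20.8 CPM (19.3 to 22.5) in WT Ngn3-low cells, and 121 CPM in deleted Ngn3-high, against 17.6 CPM in deleted Ngn3-low cells. Its log2 ratios were 2.24 in WT and 2.71 in deleted cells. The median cell had 53.8 CPM in WT Ngn3-high and 0 CPM in WT Ngn3-low cells. Klf6, which fell most in bulk, had 44.8 CPM in WT Ngn3-high against 32.3 CPM in WT Ngn3-low cells, but 14.505 CPM in deleted Ngn3-high against 23.1 CPM in deleted Ngn3-low cells. Its log2 ratio was 0.46 in WT and -0.64 in deleted cells, neither of them past 2-fold. The median cell ran the other way in WT, with 2.44 CPM in WT Ngn3-high and 24.5 CPM in WT Ngn3-low cells, and 5 cells held 48.8% of the Klf6 reads of WT Ngn3-high cells.

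Atf3 was nearly without reads in single cells. There were 67 reads in deleted Ngn3-high against 24 in deleted Ngn3-low cells, a ratio of CPM of 4.51 (95% counting interval 2.79 to 7.52) at levels of 2.08 and 0.46 CPM. These reads came from 3 cells in each group, and the interval does not cover the spread between cells. In cells whose titles carry the number 1 (described below) the levels were 3.45 against 0.14 CPM. In those of number 5 the order was the reverse, with 0 against 0.24 CPM. The 10 reads in WT Ngn3-high cells stood against 0 in WT Ngn3-low cells. The ratio was 2.48 when the group without reads is set at a floor of 3 counts over the group. That value is not a lower bound, since the lower limit of the 95% counting interval of the ratio was 1.67. In bulk, Atf3 averaged 91.6 ± 30.9 CPM in Ngn3-high and 494 ± 31.8 CPM in Ngn3-low cells (SD, n = 2 each).

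Dusp1 had 51.1 CPM (49.04 to 53.31) in WT Ngn3-high cells, against 6.40 CPM (5.56 to 7.34) in WT Ngn3-low cells, and 35.6 CPM in deleted Ngn3-high, against 9.84 CPM in deleted Ngn3-low cells. The log2 ratios were 2.82 and 1.75. Its highest cell had 243 CPM in WT Ngn3-high and 57.4 CPM in WT Ngn3-low cells. Ier2 followed Jun rather than Dusp1, with 86.9 CPM in WT Ngn3-high against 172 CPM in WT Ngn3-low cells, and 112 CPM in deleted Ngn3-high against 191 CPM in deleted Ngn3-low cells. Its log2 ratios were -0.98 and -0.77, short of 2-fold.

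**Figure D2:**
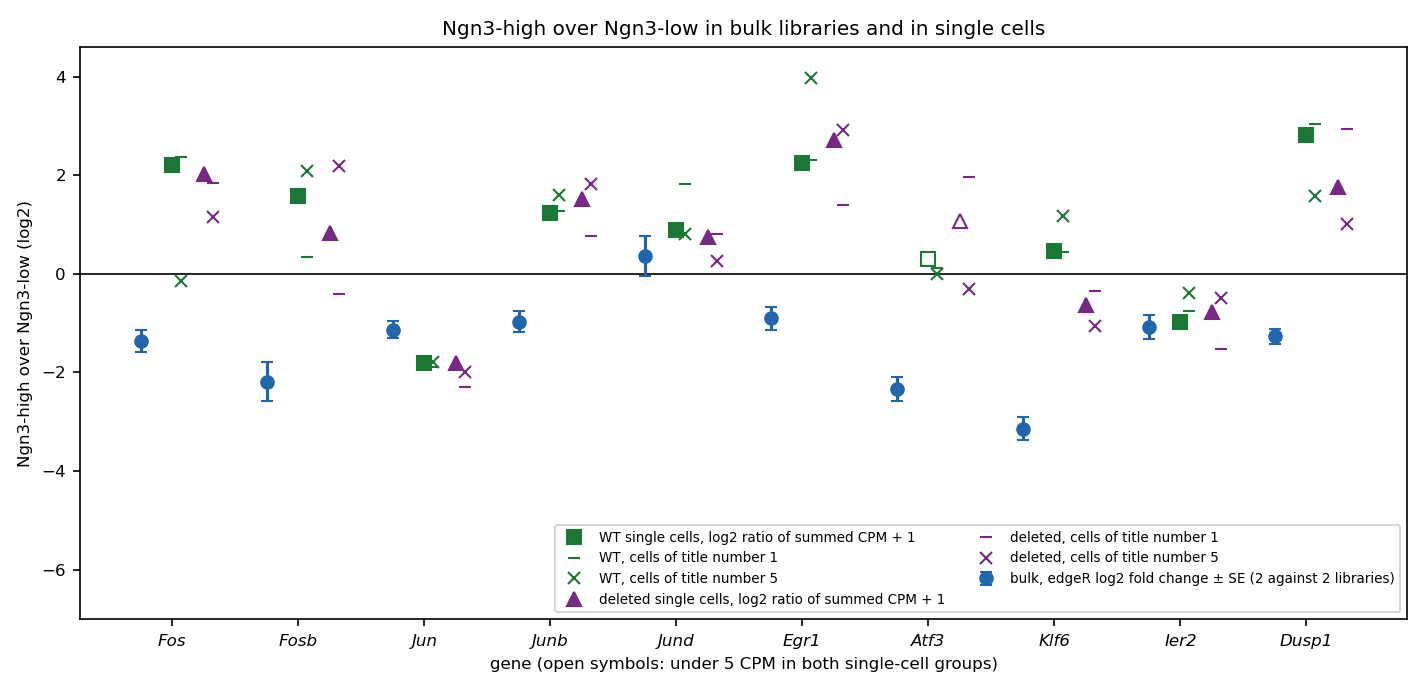
Ngn3-high over Ngn3-low on the log2 scale for each gene, in bulk (circles, edgeR log2 fold change ± SE), in WT single cells (squares) and in deleted single cells (triangles), with dashes and crosses for the cells of title numbers 1 and 5. Bulk values lie below 0 for 9 genes, and the summed single-cell values of Fos, Fosb, Junb, Egr1 and Dusp1 lie above 0 in both genotypes.

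Set side by side, the direction of the sums, Ngn3-high over Ngn3-low, differed between bulk and WT single cells for 6 of 9 members (Fos, Fosb, Junb, Egr1, Klf6 and Dusp1), and for 19.4% of 11708 genes. It differed between bulk and deleted single cells for 5 of 9 members (the same list without Klf6), and for 18.6% of 11727 genes. For Klf6 the median WT cell and the share of WT cells at 10 CPM were lower in Ngn3-high cells, as in bulk. Its share of WT cells at 50 CPM was higher there. In both genotypes only the Ngn3-high sum of Fosb reached 5 CPM, and its direction in deleted cells turned with the title number. Among genes that passed the test in bulk and 2-fold in single cells, the directions were opposite for 5 of 6 members and 2.15% of 3349 genes with WT cells, and for 4 of 5 members and 2.04% of 3439 genes with deleted cells. In each case the members were lower in bulk and higher in single cells. With 1 sample in each single-cell group, the difference between the 2 kinds of data was not tested, and both genotypes were set against the same bulk libraries.

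The titles of the single cells carry a number after the gate, whose meaning the labels do not give. Numbers 1 and 5 occur in both gates of both genotypes. Numbers 2, 3 and 4 occur in Ngn3-low cells only and number 6 in Ngn3-high cells only, where gate and number cannot be told apart. In title number 1 Fos had 84.9 CPM in WT Ngn3-high against 15.6 CPM in WT Ngn3-low cells, but in title number 5 it had 126 CPM in WT Ngn3-high against 141 CPM in WT Ngn3-low cells, of which there were 5. Over numbers 1 and 5 alone the log2 ratio of Fos in WT cells was 0.99, and without number 5 it was 3.22. The direction of Fos in WT cells thus held in number 1 and not in number 5. Over numbers 1 and 5 alone, Junb, Jund (log2 ratio 1.57), Egr1 and Dusp1 were past 2-fold higher in WT Ngn3-high cells and Jun was lower. Fosb was under 5 CPM there. Of 11808 genes, 1799 were higher and 2361 lower in those cells. In deleted cells Fosb had 5.40 CPM in Ngn3-high against 7.51 CPM in Ngn3-low cells in title number 1, and 7.31 CPM in Ngn3-high against 0.83 CPM in Ngn3-low cells in title number 5. Without number 2 its log2 ratio in deleted cells was -0.01, so its direction in deleted cells turned with the title numbers used. Egr1 had 76.4 against 14.52 CPM in title number 1 and 232 against 13.9 CPM in title number 5, WT Ngn3-high before WT Ngn3-low cells. Junb, Jund, Egr1 and Dusp1 were higher and Jun and Ier2 lower in Ngn3-high cells in both numbers and both genotypes. For Jund the smallest of these log2 ratios was 0.27, in deleted cells of number 5.

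**Figure D3:**
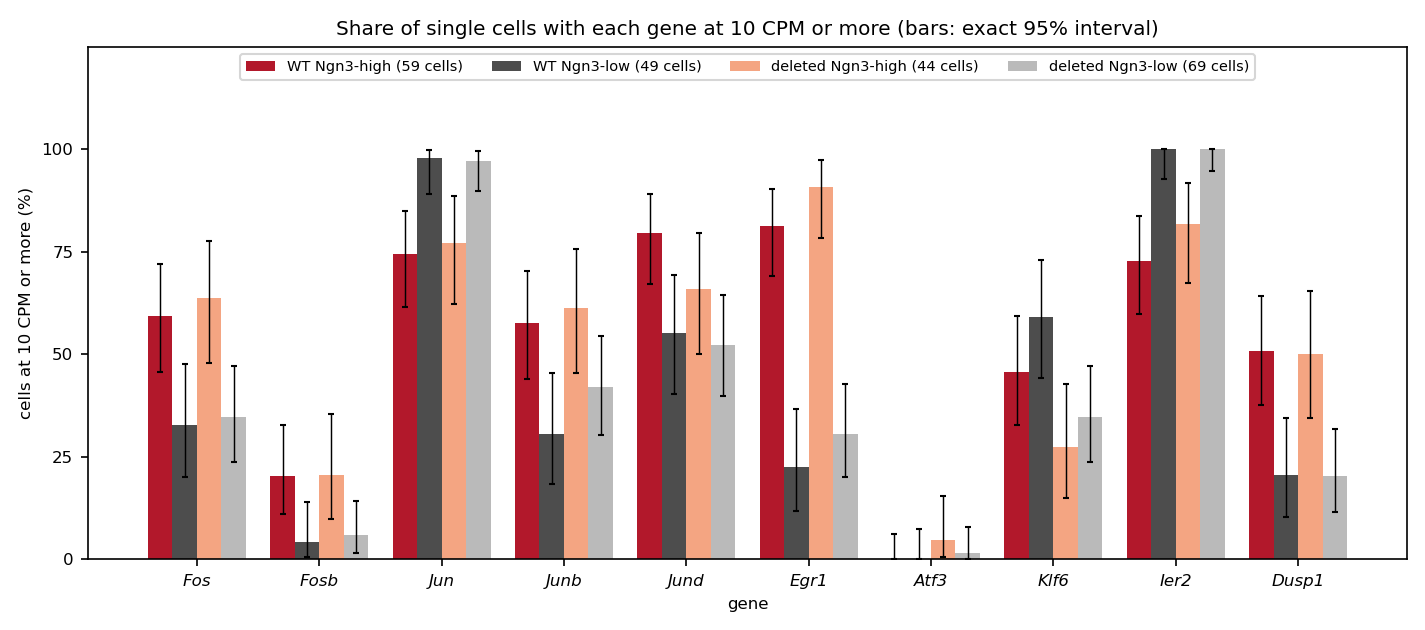
Percentage of cells with each gene at 10 CPM or more in the 4 single-cell groups, with exact 95% Clopper-Pearson intervals of counting error as error bars. Egr1 stands at 81.4% in WT Ngn3-high and 22.4% in WT Ngn3-low cells, and Ier2 at 72.9% in WT Ngn3-high and 100% in WT Ngn3-low cells.

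The sums came from many cells for some genes and from few for others. Egr1 was at 10 CPM or more in 81.4% of WT Ngn3-high cells (exact 95% Clopper-Pearson interval 69.1 to 90.3), against 22.4% of WT Ngn3-low cells (11.8 to 36.6), and in 90.9% of deleted Ngn3-high, against 30.4% of deleted Ngn3-low cells. For Fos the shares were 59.3% in WT Ngn3-high and 32.7% in WT Ngn3-low cells, and for Dusp1 50.8% in WT Ngn3-high and 20.4% in WT Ngn3-low cells. Jun was at this level in 74.6% of WT Ngn3-high and 98.0% of WT Ngn3-low cells, and Ier2 in 72.9% of WT Ngn3-high and all 49 WT Ngn3-low cells. A larger share was found in WT Ngn3-high cells for 6 members and in deleted Ngn3-high cells for 7. The member added in deleted cells was Atf3, at 2 of 44 Ngn3-high against 1 of 69 Ngn3-low cells. These counts were the same with each cell thinned to 300000 reads. The members counted changed with the threshold. At 1 CPM Atf3 was added in WT cells and Klf6 in deleted cells. At 50 CPM Klf6 was added and Fosb lost in WT cells, and Atf3 was lost in deleted cells. The count was not made over all genes, so whether it is unusual cannot be read from it. For Klf6 the share at 10 CPM ran against the sum in WT, with 45.8% of WT Ngn3-high and 59.2% of WT Ngn3-low cells, and no order is read from it. A cell had a median of 5 members at 10 CPM in Ngn3-high and 4 in Ngn3-low groups of either genotype, and 71.2% of WT Ngn3-high against 42.9% of WT Ngn3-low cells had 5 or more. Atf3 reached 10 CPM in 0 of 59 WT Ngn3-high and 0 of 49 WT Ngn3-low cells, with upper exact limits of 6.06% and 7.25%.

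Levels were also further apart between bulk and single cells for these genes than for most genes, although the tables were made separately and the difference was not tested. Over the 10 genes the median log2 of bulk over WT single-cell level was 2.26 in the Ngn3-high gate and 5.05 in the Ngn3-low gate, against 0.04 and 0.11 over all genes. These are ratios of CPM + 1. Among the 9 members with a read in WT Ngn3-low cells, the gap in that gate was widest for Fosb and Fos, at 8.85 and 5.94, and narrowest for Ier2, at 0.69. Atf3 had no read in those cells, so the size of its gap is set by the added 1 CPM and is not given. Per length, the highest of the 10 in bulk Ngn3-low cells were Fos and Jun, with mean CPM per kilobase of gene (RPKM) of 655 and 598. In WT Ngn3-low single cells Ier2 and Jun were highest, with 113 and 81.4 RPKM of the summed counts.

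Markers of other cell types differed between the gates in bulk. All 12 white blood cell markers were lower in bulk Ngn3-high cells, and their summed level was 11.7 and 5.94 CPM in Ngn3-high libraries, against 2944 and 2444 CPM in Ngn3-low libraries. Of these markers 2 and 6 had no read in the Ngn3-high libraries, and Ptprc, which encodes the leukocyte antigen CD45, averaged 0.13 CPM in Ngn3-high and 125.5 CPM in Ngn3-low cells. All 11 endothelial markers were lower as well, with sums of 10.4 and 6.61 CPM in Ngn3-high, against 501 and 541 CPM in Ngn3-low libraries. In single cells the white blood cell sums were 6.41 CPM in WT Ngn3-high, 11.8 CPM in WT Ngn3-low, 8.43 CPM in deleted Ngn3-high and 8.44 CPM in deleted Ngn3-low cells, and no endothelial sum was above 8.94 CPM. The 7 neural crest markers summed to 22.1 and 22.9 CPM in bulk Ngn3-high, against 261 and 247 CPM in bulk Ngn3-low libraries, where 1 of 6 tested rose and 2 fell, and to between 10.9 and 27.7 CPM in the single-cell groups. The 9 red blood cell markers differed in single cells, with 26.2 CPM in deleted Ngn3-high against 69.7 CPM in deleted Ngn3-low cells, and 11.6 CPM in WT Ngn3-high against 118 CPM in WT Ngn3-low cells. They reached 50 CPM in 3.39% of WT Ngn3-high and 26.5% of WT Ngn3-low cells. In bulk they summed to 8.90 and 7.69 CPM in Ngn3-high, against 18.2 and 16.2 CPM in Ngn3-low libraries. The part of these cell types in the bulk and single-cell levels of the 10 genes was not tested. In bulk, fewer cells of a type and less RNA per cell cannot be told apart.

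Acinar markers differed in both kinds of data, with summed levels of 67.7 and 76.3 CPM in bulk Ngn3-high libraries against 555 and 477 CPM in bulk Ngn3-low libraries, and 24.9 CPM in WT Ngn3-high against 1589 CPM in WT Ngn3-low single cells. Leaving out the single cells with acinar markers gave 6 members past 2-fold higher and 2 lower in WT cells, and 4 higher and 1 lower in deleted cells. Over all genes this gave 1757 higher and 2371 lower of 11804 in WT, and 1825 and 2305 of 11817 in deleted cells. Leaving out cells with white blood cell or endothelial markers gave 5 higher and 1 lower in WT cells, and 4 higher and 1 lower in deleted cells. Over all genes that gave 1639 higher and 2265 lower of 11782 in WT, and 1827 and 2209 of 11817 in deleted cells. Pancreatic progenitor markers had summed levels of 1508 and 1808 CPM in bulk Ngn3-high and 3334 and 3421 CPM in bulk Ngn3-low libraries, and 2119 CPM in WT Ngn3-high and 9357 CPM in WT Ngn3-low single cells. Of these 9 markers 3 rose and 6 fell in bulk Ngn3-high cells, against 27.7% and 30.2% of all genes. Much of the sums came from Spp1, with 1328 and 1336 CPM in bulk Ngn3-low libraries and 6041 CPM in WT Ngn3-low single cells. By summed CPM, the single Ngn3-low cells thus had more progenitor and acinar marker RNA than the bulk libraries of the same gate. They had less white blood cell and endothelial marker RNA.

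**Figure D4:**
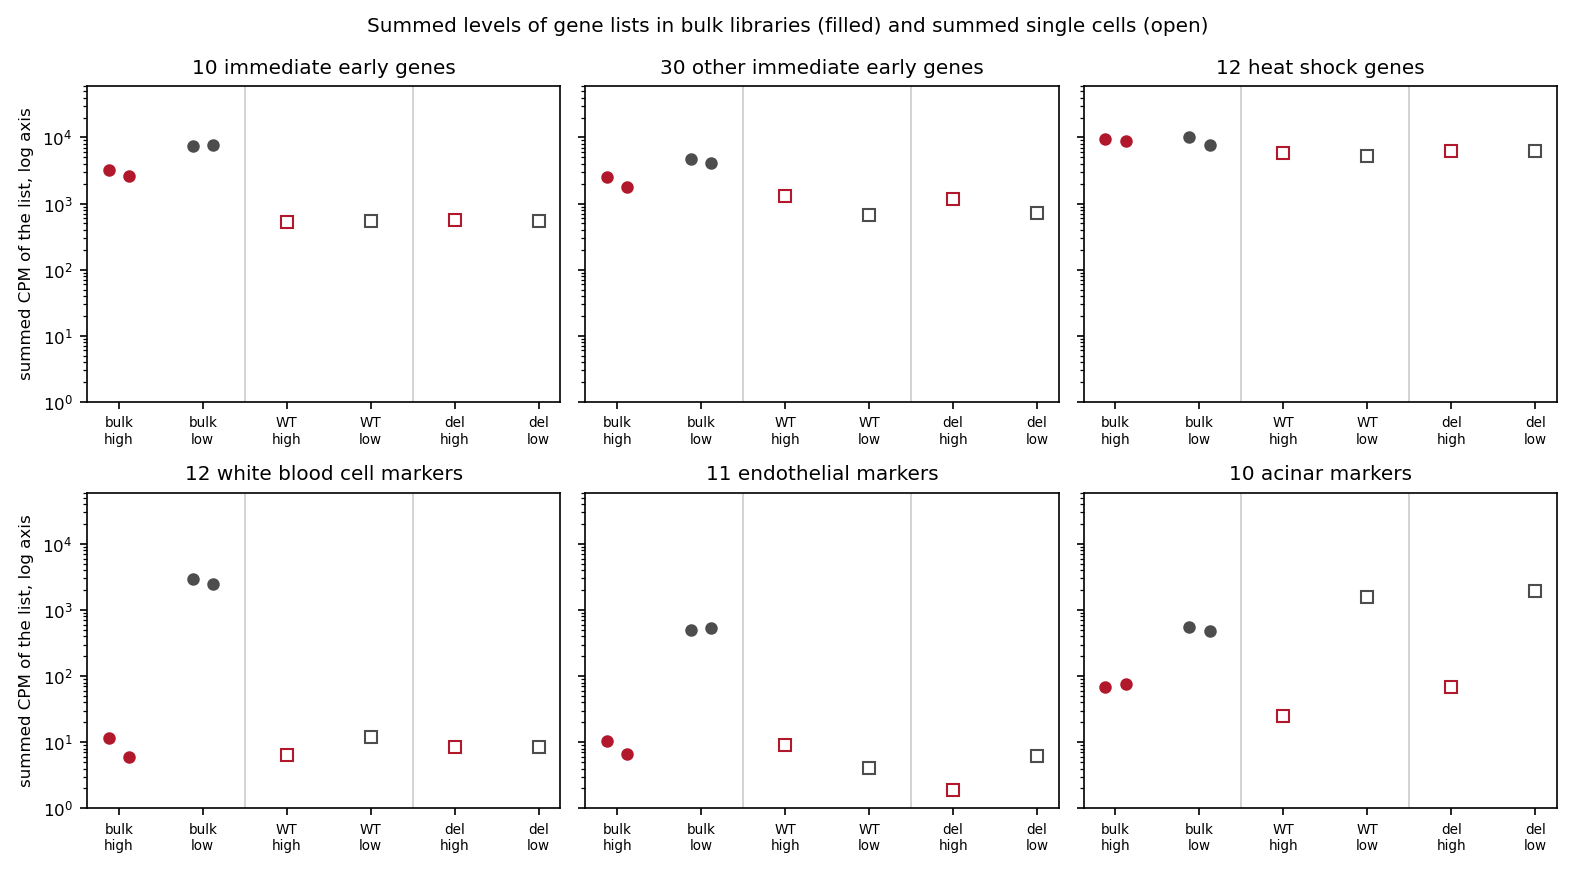
Summed CPM of 6 gene lists on a log axis in bulk libraries (filled points) and summed single cells (open squares), Ngn3-high in red and Ngn3-low in grey. White blood cell markers stand at 11.7 and 5.94 CPM in bulk Ngn3-high and 2944 and 2444 CPM in bulk Ngn3-low libraries, and between 6.41 and 11.8 CPM in every single-cell group.

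Other gene lists of the pathway are described by their counts, to be read against 27.7% of all genes that rose and 30.2% that fell in bulk. In single cells 14% of all genes were higher and 19% lower in WT, and 15.3% were higher and 18.7% lower in deleted Ngn3-high cells. Of 30 other immediate early genes, 4 rose and 15 fell in bulk Ngn3-high cells, while in WT single cells 5 were higher and 8 lower of 21 at 5 CPM, and in deleted cells 7 were higher and 7 lower of 19. Their summed level was 2497 and 1800 CPM in bulk Ngn3-high, against 4673 and 4160 CPM in bulk Ngn3-low libraries. In single cells it was 1169 CPM in deleted Ngn3-high against 722 CPM in deleted Ngn3-low cells, and 1284 CPM in WT Ngn3-high against 678 CPM in WT Ngn3-low cells. The direction of the single-cell sum rested on Btg2, an antiproliferative gene named after its values were seen, with 737 CPM in WT Ngn3-high against 45.1 CPM in WT Ngn3-low cells, and it rose in bulk too, by 0.80 on the log2 scale (SE 0.21, edgeR adjusted p = 0.0121). Without Btg2 the other 29 genes summed to 574 CPM in deleted Ngn3-high against 674 CPM in deleted Ngn3-low cells, and to 547 CPM in WT Ngn3-high against 633 CPM in WT Ngn3-low cells, lower in Ngn3-high cells as in bulk. Of the 9 that passed the test in bulk and 2-fold in single cells, 0 went opposite ways in WT and in deleted cells alike, which is near the 2.15% and 2.04% over all genes. Cyr61, a secreted matrix protein induced early by growth factors, had 35.3 and 18.3 CPM in bulk Ngn3-high, against 665 and 621 CPM in bulk Ngn3-low libraries, and fell by 4.49 on the log2 scale (SE 0.28, edgeR adjusted p = 3.71e-06). In single cells it had 1.49 CPM in WT Ngn3-high and 150 CPM in WT Ngn3-low cells. Myc, a growth regulator, fell by 3.40 in bulk and had 1.63 CPM in WT Ngn3-high and 54.99 CPM in WT Ngn3-low single cells. Ctgf, Ier3, Dusp2 and Nfkbiz also fell in bulk, with log2 fold changes of -4.66, -3.91, -3.52 and -2.99.

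Of 12 heat shock genes, which respond to protein damage, 2 rose and 2 fell in bulk Ngn3-high cells, and their summed level was 9553 and 8724 CPM in Ngn3-high against 9982 and 7713 CPM in Ngn3-low libraries. In single cells 2 were higher and none lower of 9 in WT, and 1 was higher and 3 lower of 10 in deleted cells. Hspa4l rose by 1.72 and Dnaja1 by 0.43 in bulk, and the mitochondrial chaperones Hspe1 and Hspd1 had log2 fold changes of -0.94 and -0.66. Of 9 MAP kinase feedback genes, 3 rose (Dusp10, Spry4 and Dusp4) and 3 fell (Spred1, Dusp6 and Spry1) in bulk. Dusp10, a phosphatase of the stress kinases p38 and JNK, averaged 168 ± 5.16 CPM in bulk Ngn3-high and 19.3 ± 1.85 CPM in bulk Ngn3-low cells (SD, n = 2 each), and had 182 CPM in WT Ngn3-high against 7.42 CPM in WT Ngn3-low single cells. In this list 4 genes were higher and 2 lower past 2-fold in single cells of either genotype. Of 19 upstream kinases and promoter factors 4 rose and 7 fell in bulk, with a median log2 fold change of -0.08, and 1 was higher and 1 lower past 2-fold in WT single cells. Elk3, a partner of serum response factor, fell by 3.08, and Map2k1, a kinase of the ERK pathway, rose by 0.98 in bulk.

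**Figure D5:**
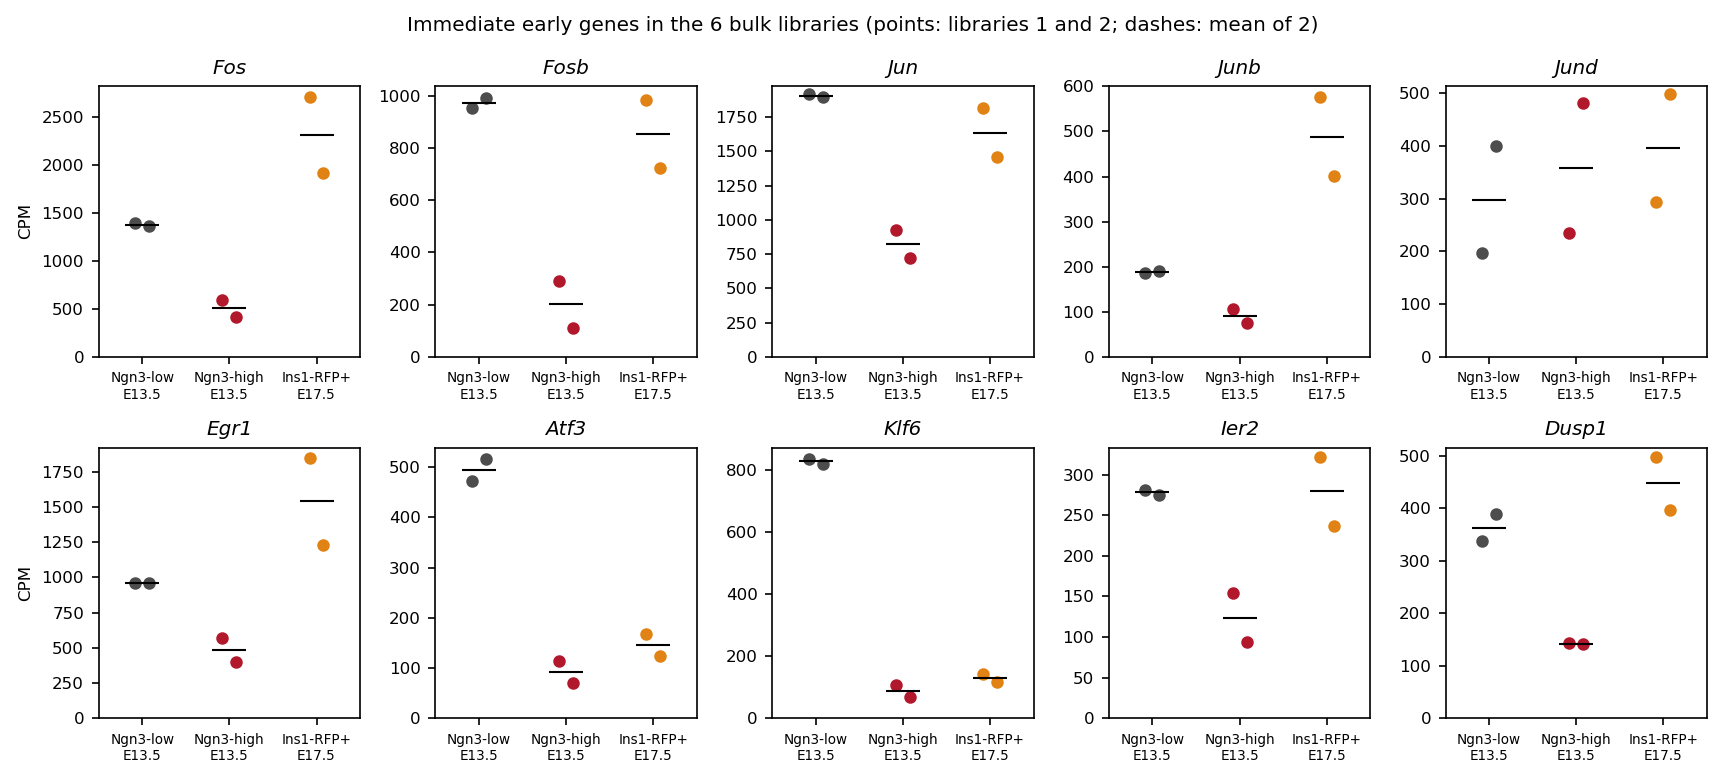
Level of the 10 genes in CPM in the 6 bulk libraries, for Ngn3-low and Ngn3-high cells of E13.5 and Ins1-RFP+ cells of E17.5, with dashes at the mean of 2 libraries. The Junb libraries stand at 185 and 191 CPM for Ngn3-low, 106 and 75.4 CPM for Ngn3-high and 576 and 402 CPM for Ins1-RFP+ cells.

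At the later step, 9 of the 10 genes rose in bulk Ins1-RFP+ cells relative to Ngn3-high cells and none fell (edgeR quasi-likelihood test, adjusted p under 0.05), against 26.1% and 24.9% of all genes. This comparison uses the same Ngn3-high libraries as the one before, and day and reporter change with the group. None of the 10 fell at an unadjusted p under 0.05 or with DESeq2. Fos had 2711 and 1914 CPM in Ins1-RFP+ libraries, against 596 and 416 CPM in Ngn3-high libraries, and rose by 2.27 on the log2 scale (SE 0.24, edgeR adjusted p = 0.000127). Junb had the largest rise, with 576 and 402 CPM in Ins1-RFP+ against 106 and 75.4 CPM in Ngn3-high libraries (2.51, SE 0.22, edgeR adjusted p = 5.49e-05). Fosb rose by 2.16 (3.05 without Ngn3-high library 1), Egr1 by 1.75, Dusp1 by 1.74, Ier2 by 1.25 and Jun by 1.08. Klf6 and Atf3 rose least, by 0.62 and 0.75, and neither passed without Ins1-RFP+ library 1 (edgeR adjusted p = 0.134 and 0.114) or without Ngn3-high library 2 (0.178 and 0.140). The call of Klf6 was also lost with total counts in place of trimmed means (edgeR adjusted p = 0.0584). For Jund the log2 fold change of 0.23 did not pass (SE 0.41, edgeR adjusted p = 0.661).

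Relative to Ngn3-low cells, 4 of the 10 genes were higher in Ins1-RFP+ cells (30.4% of all genes) and 2 were lower (35.5%). Junb was higher by 1.55 on the log2 scale (SE 0.21, edgeR adjusted p = 0.00029), Fos by 0.91, Egr1 by 0.85 and Dusp1 by 0.47. Klf6 had 142 and 116 CPM in Ins1-RFP+ libraries, against 835 and 821 CPM in Ngn3-low libraries, and fell by 2.51 (SE 0.22, edgeR adjusted p = 2.01e-05), while Atf3 fell by 1.59 (SE 0.24, edgeR adjusted p = 0.000437). Fosb, Jun and Ier2 differed by -0.02, -0.05 and 0.17 and did not pass. Without Ins1-RFP+ library 1 the calls of Egr1 and Dusp1 were lost (edgeR adjusted p = 0.0511 and 0.133), which left 2 genes higher. That of Egr1 was also lost without Ngn3-low library 2 (edgeR adjusted p = 0.0521). Dusp1 did not pass without Ngn3-low library 1 (edgeR adjusted p = 0.127) or with total counts (0.0919). Summed acinar markers, whose enzymes come from exocrine cells, were at 1326 CPM in Ins1-RFP+ library 1 and 23216 CPM in library 2, and their part in these differences was not tested.

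Between genotypes, 1 of 9 members at 5 CPM was past 2-fold in Ngn3-high single cells. This was Klf6, with 14.505 CPM in deleted and 44.8 CPM in WT cells, a log2 ratio of -1.56. In this comparison 2.76% of 11101 genes were 2-fold or more lower and 2.96% higher. Klf6 was at 10 CPM or more in 27.3% of deleted Ngn3-high cells (14.96 to 42.79), against 45.8% of WT Ngn3-high cells (32.7 to 59.3), intervals that overlap. The other members at 5 CPM ran from -0.51 for Dusp1 to 0.62 for Junb. In Ngn3-low cells none of 8 members at 5 CPM was past 2-fold, against 4.36% of 11268 genes, and log2 ratios of deleted over WT ran from -0.47 for Klf6 to 0.55 for Fos. These counts moved with the cells used. In Ngn3-low cells the log2 ratio was 1.43 for Fosb and 1.26 for Junb without title number 2, 1.08 for Fos without number 5, 1.196 for Junb in numbers 1 and 5 alone, and -1.53 for Dusp1 without cells bearing markers of other cell types. In Ngn3-high cells Jund was at -1.13 without title number 1. Each genotype and gate is 1 sample, and these differences were not tested.

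From cell to cell the genes varied together only weakly. Across the cells of a group, the mean Pearson correlation of log2(CPM + 1) over the 45 pairs of members was 0.105 when averaged over the 4 groups. It was highest for Fos and Junb, at 0.38, with 0.43 in WT Ngn3-high, 0.41 in WT Ngn3-low, 0.40 in deleted Ngn3-high and 0.29 in deleted Ngn3-low cells. Fos and Egr1 had correlations of -0.0049 in WT Ngn3-high and 0.06 in deleted Ngn3-high cells, against 0.55 in WT Ngn3-low and 0.65 in deleted Ngn3-low cells. Within Ngn3-high cells, Fos had a correlation with Neurog3 of -0.48 in 59 WT and -0.47 in 44 deleted cells, and with its target Neurod1 of 0.40 in WT and 0.45 in deleted cells. Egr1 had correlations with Neurog3 of 0.21 in WT and 0.17 in deleted Ngn3-high cells. Each correlation pools the cells of several title numbers, whose levels can differ. Fos in WT Ngn3-low cells had 5.05 CPM in number 2 and 141 CPM in number 5. Cells also differ in depth, and the correlations are given as a description with no test.

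The genes whose level followed the mean of the 10 most closely across cells, among 7627 genes at 10 CPM in at least 25% of the cells of each group, had mean correlations of 0.25 to 0.32. The 10 closest included Ccdc92, Aacs, Cdkn2d, Apoa1bp, Itfg1, Tmem181b-ps, Zfp36, Zwint and Med25. The median over all candidates was 0.02 and their 99th percentile 0.21. Of the 10, Zfp36, which encodes an mRNA decay factor, was also on the list of other immediate early genes. It fell by 2.49 on the log2 scale in bulk Ngn3-high cells (SE 0.33, edgeR adjusted p = 0.000278) and had 32.2 CPM in WT Ngn3-high against 17.54 CPM in WT Ngn3-low single cells, short of 2-fold.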

How the data were processed

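The data are gene read count tables of poly(A) bulk RNA (strand-specific kit) and of single cells (Smart-seq2 with ERCC spike-ins), per the labels' protocols. Per the submitters' processing notes, the tools were HTSeq 0.6.0, TopHat2 2.1.0 with Bowtie2, and DESeq 1.20.0, on mm10. For the annotation and the strand setting nothing is given in the sources used here. The deposited counts were used as they stand, and 0 columns were left unmapped. The 10 genes, the gene lists and the tests were chosen with earlier results of these data known. Depth was 11957415 to 17760214 reads in genes per bulk library and 380478 to 1949839 per cell, where 3 counts are worth 0.169 to 0.251 CPM in bulk.

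Bulk counts were fitted over all 6 libraries with edgeR 4.0.16 (R 4.3.3, trimmed-mean scaling, filterByExpr, quasi-likelihood test), with p-values adjusted over 15684 genes; the fit was checked on simulated data. DESeq2 1.42.0 was an alternative. Other alternatives were total counts, DESeq2 size factors, no filter, the compared groups alone, a replicate block and leaving out each library. Replicate libraries differed by more than sampling noise (chi-square per degree of freedom 12.9 to 57.9).

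Single-cell counts were summed per group (Python 3.11.15, pandas 2.3.3, numpy 2.4.6, scipy 1.17.1) and given as CPM of reads in genes, with exact Poisson and Clopper-Pearson 95% intervals and log2 ratios of CPM + 1. Leaving out cells with acinar or any other cell type's markers (50 CPM or more in sum), and Btg2 from a list's sum, was chosen after seeing the data. Named genes of other lists are up to 6 called in bulk with the largest change, and the 10 genes most alike across cells, of which one is not reported here. Figures were drawn with matplotlib 3.10.9.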

Additional observations from a re-analysis of the deposited data

Results flagged for a closer look

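For several genes bulk and single cells went opposite ways: each Ngn3-high library lay below each Ngn3-low library in bulk. The single Ngn3-high cells, in contrast, lay above the Ngn3-low cells in their sum and in both shared title numbers. Those numbers are subsets of cells of unknown meaning, not replicates, and number 5 holds only 5 WT Ngn3-low cells. How many of all genes met this rule was not counted. The difference between bulk and single cells was not tested, since each single-cell group is 1 sample. In deleted cells this held for Egr1 (log2 ratio of Ngn3-high over Ngn3-low 2.71), Fos (2.02), Dusp1 (1.75) and Junb (1.52). In WT cells it held for Dusp1 (2.82), Egr1 (2.24) and Junb (1.24). Fosb (1.58) met the rule too, but only its Ngn3-high sum reached 5 CPM. It was under 5 CPM in both title numbers, with 4.39 against 3.28 CPM in number 1 and 3.26 against 0 CPM in number 5. The sums of Klf6 met the rule as well (0.46). The median WT cell of Klf6 and its share of WT cells at 10 CPM, however, were lower in Ngn3-high cells, as in bulk. Its share of WT cells at 50 CPM was higher there. No direction is therefore read for Klf6.

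The sums of Klf6 also went opposite ways in the genotypes, while its share of cells at 10 CPM was lower in Ngn3-high cells in both. The shares were 27.3% of deleted Ngn3-high against 34.8% of deleted Ngn3-low cells, and 45.8% of WT Ngn3-high against 59.2% of WT Ngn3-low cells. The order turned with the threshold. At 50 CPM the WT share was higher in Ngn3-high cells (25.4% against 20.4%). At 1 CPM the deleted share was higher in Ngn3-high cells (52.3% against 50.7%). The WT share at 1 CPM and the deleted share at 50 CPM were lower there. The log2 ratio of Klf6 sums, Ngn3-high over Ngn3-low, was -0.64 in deleted cells, where both shared title numbers were below 0 (-0.34 and -1.06). In WT cells it was 0.46, and both were above 0 (0.44 and 1.17). This difference was not tested either.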

How the results depend on the processing

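In bulk, 8 to 9 members fell in Ngn3-high cells without any 1 library, and 7 to 9 rose in Ins1-RFP+ relative to Ngn3-high cells. Relative to Ngn3-low cells 2 to 4 were higher in Ins1-RFP+ cells, with 2 without Ins1-RFP+ library 1. Without the filter or with a replicate block, 1 member (Jund) rose in Ngn3-high cells where 0 did otherwise. Under the block Jund was higher by 0.35 on the log2 scale (edgeR adjusted p = 0.0350), 9 members fell, and 5 were higher in Ins1-RFP+ than in Ngn3-low cells, Jund among them (0.62). Same-numbered libraries had correlations of 0.1, 0.109 and 0.092, so the numbers were not taken as pairs, and the block changed no other call of a member. Signs turned for values that had not passed the test. Jund in Ngn3-high against Ngn3-low cells was -0.05 without Ngn3-low library 1 and -0.23 without Ngn3-high library 2, in a range up to 0.93. Jund in Ins1-RFP+ against Ngn3-high cells was -0.18 without Ngn3-high library 1 or Ins1-RFP+ library 2, in a range up to 0.81. In Ins1-RFP+ against Ngn3-low cells Fosb was 0.0221 with DESeq2 size factors, 0.0234 with DESeq2, 0.071 in the compared groups alone and -0.27 to 0.21 over leave-outs. Jun was 0.0417 in the compared groups alone and -0.23 to 0.12 over leave-outs, and Ier2 was -0.0749 to 0.40. In WT single cells 3 members were higher with ERCC scaling or 10 CPM added, and 4 to 6 over leave-outs of a title number. The members lower in WT cells were 2 with ERCC scaling and without cells of acinar or any other cell type's markers, and 1 to 2 over leave-outs. In deleted cells 2 were lower over title numbers 1 and 5 alone and 1 to 2 over leave-outs, and 3 to 5 were higher. The count of opposite directions was 5 to 6 with WT and 4 to 5 with deleted cells. Over all genes, 10 CPM added gave 969 higher and 1261 lower in WT cells. ERCC scaling moved the median log2 ratio of all genes to -0.40 in WT and -0.20 in deleted cells, from -0.05 and -0.03, and total counts moved that of Ins1-RFP+ against Ngn3-low cells to -0.24 from -0.08. The causes were not tested.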
